A study of Mus musculus with 12 samples.

Results

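The genes of polyamine synthesis and breakdown were followed in mouse osteoblasts with and without induced *c-Myc*. The set was fixed by name, but it was chosen with earlier results of these data known. It holds 9 of the 32288 genes and transgenes in the count table: *Odc1*, *Srm*, *Sms*, *Amd1*, *Azin1*, *Oaz1*, *Oaz2*, *Sat1* and *Smox*. All 9 were present and all 9 passed the filter on low counts. The study sequenced RNA from sorted mGFP+ cells of the metaphysis, the growing end of the long bone, taken as osteoblasts of the *Osx* (*Sp7*) lineage. Every group carried *Osx-CreERT2*, a tamoxifen-activated Cre driven by *Osx*, with the *mTmG* reporter, and every mouse received tamoxifen. Juvenile *Osx*+ osteoblasts came from 3-week-old mice (n = 4 libraries) and adult *Osx*+ osteoblasts from 8-week-old mice (n = 4), each library pooling the femurs and tibias of 2 males. *c-Myc* osteoblasts (n = 2) carried *LSL-tTA* and *Col1a1::TetO-c-Myc* in addition, so that recombined cells expressed a *c-Myc* transgene. *c-Myc* + *R172H* osteoblasts (n = 2) also carried the conditional *Trp53* allele *LSL-R172H*, which encodes a mutant p53 protein.

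The *c-Myc* groups differed from the juvenile group in more than genotype. They were collected 7 days after 2 daily tamoxifen doses, whereas control cells were collected 2 days after the last of 3, and mice with tet-OFF transgenes had been given doxycycline or tetracycline beforehand. Their titles give 3 weeks while the dissection notes give 5 weeks, their bone was trimmed at 5 mm rather than 2 mm, and mice of either sex were used. These differences and the effect of *c-Myc* cannot be told apart in any comparison with juvenile cells. Transcripts of *Xist*, which is expressed in female cells, numbered 1 and 4118 counts in the 2 *c-Myc* libraries and 4 and 4263 in the 2 *c-Myc* + *R172H* libraries, so the 2 libraries of a group did not hold the same animals. Replicate 2 was the *Xist*-high library in both groups, and within a group sex and replicate cannot be told apart.

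Polyamines (putrescine, spermidine and spermine) are small positively charged molecules that bind nucleic acids and are needed for translation and cell growth. Ornithine decarboxylase, encoded by *Odc1*, makes putrescine from ornithine. S-adenosylmethionine decarboxylase (*Amd1*) provides the aminopropyl groups that spermidine synthase (*Srm*) and spermine synthase (*Sms*) add in turn. Antizymes (*Oaz1*, *Oaz2*) bind ornithine decarboxylase and send it to the proteasome, and the antizyme inhibitor *Azin1* binds antizyme in its place. Spermidine/spermine acetyltransferase (*Sat1*) marks polyamines for oxidation or export, and spermine oxidase (*Smox*) converts spermine back to spermidine. *Odc1* is a textbook target of c-Myc, which binds E-boxes such as CACGTG and the variant CACGCG.

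Promoter sequence bears on these genes because they were read in cells with a *c-Myc* transgene. RefSeq windows (GRCm38.p6, 250 bases before to 50 after a start) were found for 7 of the 9 genes and made up 8 windows. *Srm* and *Azin1* were not matched. Sequence outside these windows was not searched, so a motif farther into *Odc1*, such as in its introns, would be missed. Both strands were searched for CACGTG, which is its own reverse complement, and for CACGCG, read as CGCGTG on the other strand. The 2 motifs cannot occupy the same bases. CACGTG lay in 1 of the 8 windows and in 7.15% of all 32851 windows. CACGCG lay in 3 of the 8 and in 9.27% of all windows. *Odc1* held CACGCG at 2 places, 180 and 101 bases before its start, as 1.67% of all windows did. *Oaz1* held it at 212 bases before the start and the second *Sms* window at 140. The only CACGTG was in the first *Sms* window, 196 bases before the start. The upstream stretches of *Odc1* (chr12:17544623-17544793, plus strand) and *Sms* (chrX:157492288-157492537, minus strand) are shown, 5′ to 3′, as the windows with 2 variant motifs and with the canonical one, and capitals mark the motif letters. Distances are from the RefSeq start. The *Odc1* stretch stops short of that start, at the first base of the GENCODE gene. A match of letters does not show that a factor binds there.
Odc1: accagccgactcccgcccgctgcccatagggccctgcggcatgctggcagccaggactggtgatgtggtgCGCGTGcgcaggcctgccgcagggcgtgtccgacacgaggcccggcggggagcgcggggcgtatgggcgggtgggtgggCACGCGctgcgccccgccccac
Sms: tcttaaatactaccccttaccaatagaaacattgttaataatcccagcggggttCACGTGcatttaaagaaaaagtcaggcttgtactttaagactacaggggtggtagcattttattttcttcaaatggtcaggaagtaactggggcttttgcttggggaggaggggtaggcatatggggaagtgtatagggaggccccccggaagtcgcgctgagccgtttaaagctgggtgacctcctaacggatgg

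Sequencing gave 9066154 to 15684412 counts per library. *Myc* checked only whether a library was rightly labelled as transgenic or control, not the age or *R172H* labels. It stood at 39.8 to 52.2 CPM (counts scaled to a common library size with TMM factors, which allow for differences in composition) in the 8 control libraries, at 624 and 658 CPM in *c-Myc* cells and at 639 and 748 CPM in *c-Myc* + *R172H* cells. *Col1a1* took 33.4 to 39.1% of juvenile counts, 21.4 to 34.1% of adult counts, 9.14 to 11.3% in *c-Myc* cells and 5.61 to 5.83% in *c-Myc* + *R172H* cells, while *Gm26917* took 7.19 to 8.46% of counts in juvenile cells and 26.5 to 29.4% in the 4 *c-Myc* libraries. All 9 osteoblast markers, *Col1a1* among them, were detected in every group and summed to 571515 to 840239 CPM in juvenile, 343256 to 618753 CPM in adult, 99905 to 132323 CPM in *c-Myc* and 56424 to 58368 CPM in *c-Myc* + *R172H* libraries. The 14 chondrocyte markers were detected too, and summed to 18747 to 36812 CPM in juvenile, 44663 to 141550 CPM in adult, 1886 to 2128 CPM in *c-Myc* and 881 to 1048 CPM in *c-Myc* + *R172H* libraries. The 6 marrow stromal markers ranged over 326 to 415 CPM in juvenile and 123 to 204 CPM in *c-Myc* libraries. Of the 6 osteoclast markers, 2 were detected above 3 counts in juvenile, 3 in adult, 3 in *c-Myc* and 2 in *c-Myc* + *R172H* libraries. *Calcr* and *Ocstamp* were at 0 throughout, and *Oscar* and *Atp6v0d2* were also at 0 in juvenile libraries. The markers summed to 129 to 151 CPM in juvenile, 93.0 to 116 CPM in adult and at most 23.5 CPM in the 4 *c-Myc* libraries. These sums come from few genes of the list and do not show that osteoclasts were present. The part of these shifts in the results below was not tested, and in bulk RNA fewer cells of a type and less RNA per cell cannot be told apart. Of the 10 haematopoietic markers, 6 were detected above 3 counts in *c-Myc* and 3 in each other group, with *Cd3e* and *S100a8* at 0 in all groups. Their sums were low but higher in the transgenic than in the juvenile libraries. They were 0.64 to 4.59 CPM in juvenile and 5.67 to 10.9 CPM in adult libraries. *c-Myc* libraries held 11.1 to 12.3 CPM and *c-Myc* + *R172H* libraries 7.89 to 8.88 CPM. The part of this shift in the results below was not tested.

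In *c-Myc* osteoblasts all 4 synthesis genes were higher than in juvenile cells, and both breakdown genes were lower. Of the 9 genes, 4 rose (*Odc1*, *Srm*, *Sms*, *Amd1*) and 4 fell (*Smox*, *Sat1*, *Oaz2*, *Azin1*) at an adjusted p below 0.05 in edgeR's quasi-likelihood test with TMM scaling, and *Oaz1* was not called. With library totals *Oaz2* and *Azin1* lay on the other side of 0, and *Sat1* stayed below 0 but was not called. Of the 12588 genes tested, 28.4% rose and 25% fell. The median log2 fold change was 0.15 over the 9 genes and 0.04 over all genes. Of the 9, 6 also changed by at least 1 on the log2 scale, which 18.4% of all genes did upward and 16% downward. *c-Myc* + *R172H* cells, compared with the same juvenile libraries, had the same 4 genes higher and the same 4 lower, where 30.4% of all genes rose and 26.3% fell. With library totals *Oaz2* and *Azin1* were again higher and *Sat1* was again not called. In each comparison the libraries of all 8 called genes did not overlap. Of all genes, 35.7% (higher) and 28.7% (lower) did not overlap in the first comparison and 36.6% and 30.1% in the second.

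**Figure D1:**
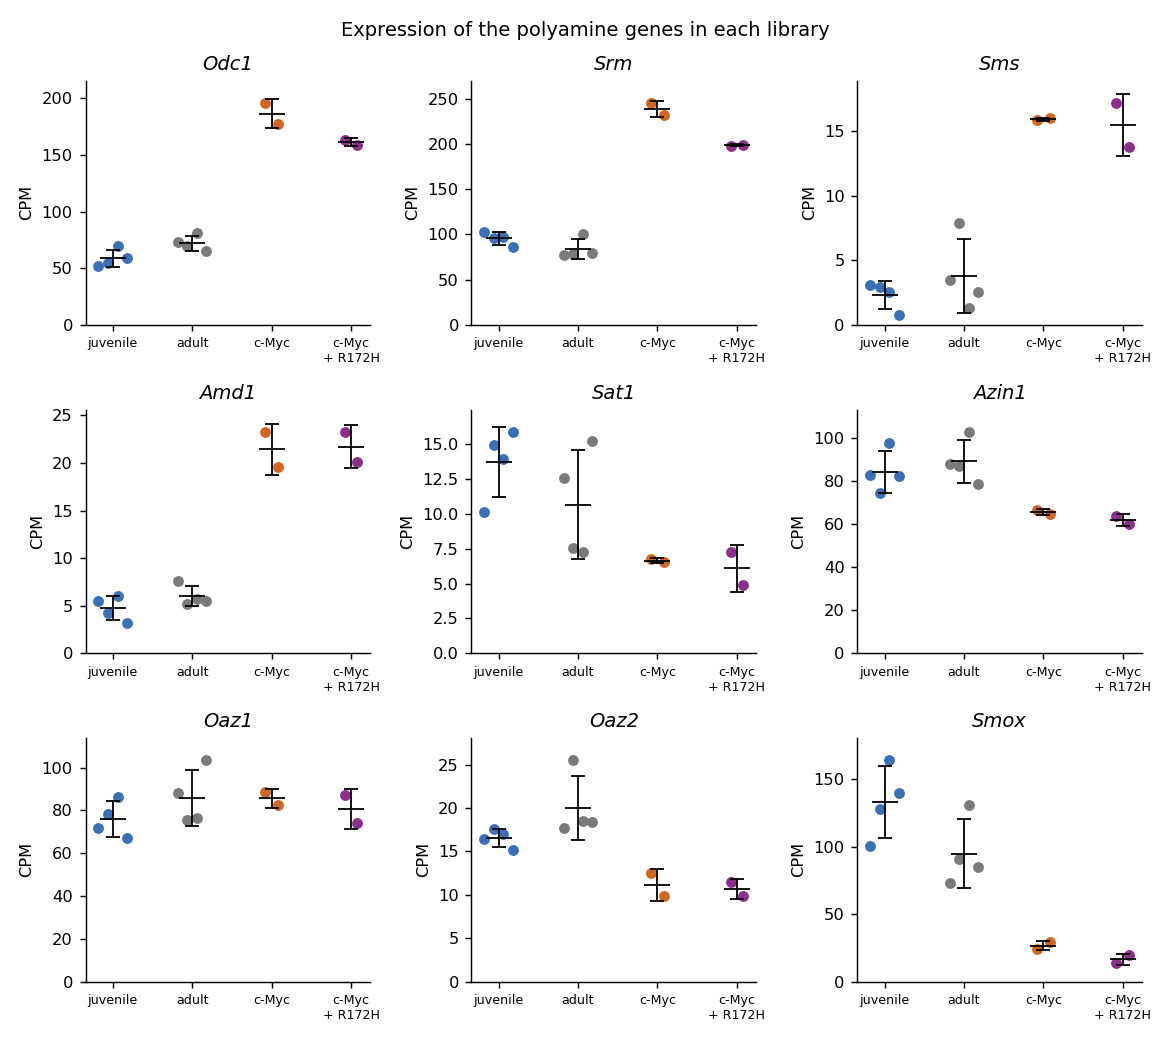
Expression in CPM (TMM-scaled, linear axis from 0) of each polyamine gene, with 1 point per library and the mean ± SD per group (n = 4, 4, 2 and 2). The 4 *c-Myc* libraries lie above all 8 control libraries for *Odc1*, *Srm*, *Sms* and *Amd1* and below them for *Smox*, *Azin1* and *Oaz2* (the last 2 turn with library totals), while *Sat1* is below all juvenile libraries and *Oaz1* overlaps.

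*Odc1* (ENSMUSG00000011179, chr12:17544794-17551505, plus strand), the first enzyme of the pathway, was read at 52.3, 54.3, 69.7 and 58.6 CPM in juvenile cells, at 72.9, 69.7, 80.7 and 65.0 CPM in adult cells, at 195.7 and 177.2 CPM in *c-Myc* cells and at 163.6 and 158.9 CPM in *c-Myc* + *R172H* cells. Every *c-Myc* library was above every control library. *Odc1* rose by 1.65 ± 0.11 (log2 fold change ± SE, adjusted p = 1.35e-07, edgeR) in *c-Myc* cells, 3.13-fold, and by 1.47 ± 0.11 (adjusted p = 2.45e-07, edgeR) in *c-Myc* + *R172H* cells.

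*Srm* (ENSMUSG00000006442, chr4:148591503-148594993, plus strand), which makes spermidine, was the most abundant of the 9 per kb of annotated exon in all 4 groups, a rank that depends on this choice of length. It stood at 103.1, 96.6, 97.2 and 85.8 CPM in juvenile, 77.2, 78.2, 100.5 and 79.4 CPM in adult, 245.3 and 232.7 CPM in *c-Myc* and 198.0 and 199.3 CPM in *c-Myc* + *R172H* libraries. The *c-Myc* libraries did not overlap the controls. *Srm* rose by 1.30 ± 0.09 (adjusted p = 2.19e-07, edgeR) and by 1.06 ± 0.09 (adjusted p = 9.63e-07, edgeR) in the 2 comparisons.

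*Sms* (ENSMUSG00000071708, chrX:157443855-157492287, minus strand), which makes spermine, had the lowest level per kb in both control groups and the largest rise. Its juvenile libraries held 3.11, 2.89, 2.50 and 0.75 CPM, or 34, 28, 18 and 6 counts. Adult libraries held 3.44, 7.90, 1.29 and 2.56 CPM, the *c-Myc* libraries 15.8 and 16.0 CPM, and the *c-Myc* + *R172H* libraries 17.2 and 13.8 CPM. The control values spread widely and all lay below the *c-Myc* values. *Sms* rose by 2.73 ± 0.34 (adjusted p = 2.49e-05, edgeR) and by 2.72 ± 0.34 (adjusted p = 2.25e-05, edgeR), and 4.07% of genes had a larger fold change than *Sms* in *c-Myc* cells.

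*Amd1* (ENSMUSG00000075232, chr10:40287458-40302186, minus strand) followed the same order, with 5.48, 4.23, 5.98 and 3.23 CPM in juvenile, 7.59, 5.19, 5.69 and 5.54 CPM in adult, 23.3 and 19.6 CPM in *c-Myc* and 23.3 and 20.1 CPM in *c-Myc* + *R172H* libraries. Both *c-Myc* groups covered nearly the same range and lay above all controls. It rose by 2.16 ± 0.23 (adjusted p = 6.36e-06, edgeR) and by 2.20 ± 0.23 (adjusted p = 4.49e-06, edgeR). Of the possible 86-base reads of *Amd1* transcripts, 79.4% also occurred in transcripts of other genes, among them *Amd2*, against 44% for *Oaz1*, 28% for *Sms*, 25.8% for *Odc1* and 5.73% or less for the other 5. Levels of those 4 genes are therefore uncertain, since reads shared with a copy may have been left uncounted.

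Among the regulators of ornithine decarboxylase, *Oaz1* (ENSMUSG00000035242, chr10:80826656-80829290, plus strand) held 72.0, 78.2, 86.4 and 67.1 CPM in juvenile, 88.1, 75.6, 76.6 and 103.5 CPM in adult, 88.7 and 82.6 CPM in *c-Myc* and 87.2 and 74.2 CPM in *c-Myc* + *R172H* libraries. All 4 groups overlapped. Its log2 fold change was 0.15 ± 0.12 (adjusted p = 0.286, edgeR) in *c-Myc* cells and 0.10 ± 0.12 (adjusted p = 0.504, edgeR) in *c-Myc* + *R172H* cells. *Oaz2* (ENSMUSG00000040652, chr9:65668001-65690300, plus strand), a second antizyme, held 16.4, 17.5, 17.0 and 15.2 CPM in juvenile, 17.7, 25.5, 18.5 and 18.3 CPM in adult, 12.5 and 9.87 CPM in *c-Myc* and 11.5 and 9.88 CPM in *c-Myc* + *R172H* libraries. The *c-Myc* libraries were below all controls. *Oaz2* fell by 0.59 ± 0.19 (adjusted p = 0.0208, edgeR) and by 0.62 ± 0.19 (adjusted p = 0.0146, edgeR).

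*Azin1* (ENSMUSG00000037458, chr15:38487427-38519266, minus strand), which frees ornithine decarboxylase from antizyme, moved less. Its values were 82.8, 74.3, 97.6 and 82.0 CPM in juvenile, 87.8, 86.8, 102.7 and 78.4 CPM in adult, 66.5 and 64.4 CPM in *c-Myc* and 63.7 and 59.9 CPM in *c-Myc* + *R172H* libraries. The *c-Myc* libraries were below all controls, which overlapped each other. *Azin1* fell by 0.38 ± 0.11 (adjusted p = 0.0134, edgeR) and by 0.44 ± 0.12 (adjusted p = 0.00608, edgeR). It shares 358 exon bases with *Gm49077*, a gene on the opposite strand, and the strand setting of the counting is not given in the sources used here.

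The calls on the smaller falls depended on scaling and on single libraries. When libraries were scaled by their totals alone, where the median gene stood at 0.87, *Azin1* was higher by 0.45 (adjusted p = 0.0144, edgeR) and *Oaz2* by 0.25 (adjusted p = 0.364, edgeR) in *c-Myc* cells. Without *c-Myc* replicate 1 or *c-Myc* replicate 2 the adjusted p of *Azin1* was 0.0766 or 0.10, and without *c-Myc* replicate 2 that of *Oaz2* was 0.234 (edgeR). The differences themselves stayed at -0.40 and -0.36 for *Azin1* and at -0.43 for *Oaz2* in those fits.

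Both breakdown enzymes were lower. *Smox* (ENSMUSG00000027333, chr2:131491496-131525922, plus strand) held 100.5, 128.1, 164.1 and 139.6 CPM in juvenile, 72.8, 91.2, 131.1 and 84.8 CPM in adult, 24.2 and 29.2 CPM in *c-Myc* and 13.8 and 19.7 CPM in *c-Myc* + *R172H* libraries. The lowest control library held more than any *c-Myc* library. *Smox* fell by 2.34 ± 0.20 (adjusted p = 1.21e-06, edgeR), or 5.05-fold, and by 2.98 ± 0.21 (adjusted p = 1.73e-07, edgeR), or 7.88-fold.

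*Sat1* (ENSMUSG00000025283, chrX:155213132-155216449, minus strand), the rate-limiting step of polyamine breakdown, held 10.1, 15.0, 13.9 and 15.9 CPM in juvenile, 12.6, 7.56, 7.25 and 15.2 CPM in adult, 6.76 and 6.52 CPM in *c-Myc* and 7.28 and 4.91 CPM in *c-Myc* + *R172H* libraries. The *c-Myc* libraries were below juvenile cells, and the highest *c-Myc* + *R172H* value, 7.28 CPM, was just above the lowest adult value, 7.25 CPM. *Sat1* fell by 1.06 ± 0.26 (adjusted p = 0.00404, edgeR) and by 1.16 ± 0.26 (adjusted p = 0.00221, edgeR). With library totals the *Sat1* difference in *c-Myc* cells was -0.22 (adjusted p = 0.493, edgeR), and without *c-Myc* + *R172H* replicate 2 its adjusted p in those cells was 0.0523. *Sms* and *Sat1* are X-linked, and *Xist* stood at 234 and 212 CPM in replicate 2 of the *c-Myc* and *c-Myc* + *R172H* groups and at 1.24 CPM or less in the other 10 libraries. In those 2 *Xist*-high libraries *Sms* held 16.0 and 13.8 CPM, beside 15.8 and 17.2 CPM in the other *c-Myc* libraries. *Sat1* held 6.52 and 4.91 CPM in the *Xist*-high libraries, beside 6.76 and 7.28 CPM in the others. A part of sex in these values was not tested.

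**Figure D2:**
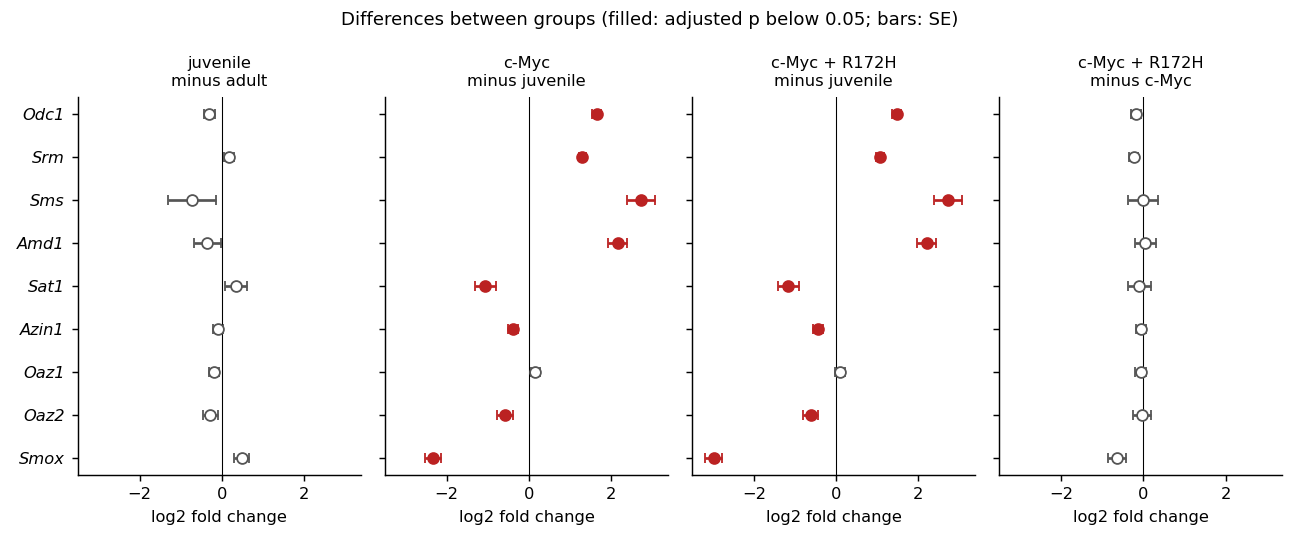
Log2 fold change ± SE of the 9 genes in the 4 comparisons (edgeR), with filled points where the adjusted p was below 0.05. The 2 comparisons with juvenile cells share the juvenile libraries, and in both 4 genes lie to the right and 4 to the left of 0. With library totals *Azin1* and *Oaz2* cross 0 in those 2 panels, *Srm* does so for age, and *Odc1*, *Sms*, *Sat1*, *Azin1*, *Oaz1* and *Oaz2* do so between the *c-Myc* groups. No gene is filled for age or *R172H*.

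The order of levels within the pathway differed between groups. Lengths were the union of all annotated exons, and the order depends on this choice. *Oaz1* and *Sat1* have 2558 and 2774 bases of exon, but their longest protein-coding transcripts have 1071 and 1162. No order was computed with transcript lengths. Per kb of exon, juvenile cells held 59.8 CPM of *Srm*, 34.2 of *Smox*, 29.7 of *Oaz1*, 17.2 of *Odc1*, 13.4 of *Azin1*, 5.53 of *Oaz2*, 4.95 of *Sat1*, 1.34 of *Amd1* and 0.38 of *Sms*. The libraries of *Smox* and *Oaz1*, of *Odc1* and *Azin1* and of *Oaz2* and *Sat1* overlapped, so these neighbours were not separated. In *c-Myc* cells *Srm* led at 149 CPM per kb, followed by *Odc1* at 54.8, *Oaz1* at 33.5, *Azin1* at 10.5, *Smox* at 6.86, *Amd1* at 6.05, *Oaz2* at 3.74, *Sms* at 2.65 and *Sat1* at 2.39, and among neighbours only *Smox* and *Amd1* overlapped. Adult cells held 52.4 CPM per kb of *Srm*, 33.6 of *Oaz1*, 24.4 of *Smox*, 21.2 of *Odc1* and 0.63 of *Sms*. *c-Myc* + *R172H* cells held 124 CPM per kb of *Srm*, 47.4 of *Odc1*, 31.6 of *Oaz1*, 6.13 of *Amd1*, 4.30 of *Smox* and 2.20 of *Sat1*.

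Ratios of 2 genes within a library do not depend on how the libraries are scaled. The ratio of *Odc1* to *Oaz1* counts, enzyme transcript to antizyme transcript, was 0.694 to 0.874 in juvenile and 0.628 to 1.05 in adult libraries, 2.14 to 2.21 in *c-Myc* and 1.88 to 2.14 in *c-Myc* + *R172H* libraries. In the 4 *c-Myc* libraries together it was 2.70-fold that of juvenile cells (log2 difference 1.43, exact two-sided permutation test p = 0.0286, the smallest this design allows, adjusted p = 0.0572 over 6 tests). The 2 sets of 4 libraries did not overlap, but the adjusted p did not pass 0.05.

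The ratio of *Odc1* to *Sat1* counts, first synthetic step to first breakdown step, was 3.63 to 5.16 in juvenile, 4.27 to 11.1 in adult, 27.2 to 29.0 in *c-Myc* and 22.5 to 32.3 in *c-Myc* + *R172H* libraries. It was 6.38-fold higher in the 4 *c-Myc* libraries than in juvenile cells (exact two-sided permutation p = 0.0286, adjusted p = 0.0572). The ratio of *Srm* to *Sms* counts was 33.2 to 115 in juvenile, 9.9 to 77.7 in adult, 14.5 to 15.5 in *c-Myc* and 11.5 to 14.4 in *c-Myc* + *R172H* libraries, 3.39-fold lower in the 4 *c-Myc* libraries than in juvenile cells (exact two-sided permutation p = 0.0286, adjusted p = 0.0572). Adult cells spanned the *c-Myc* values of this last ratio. Between juvenile and adult cells the log2 differences of the 3 ratios were -0.13, -0.72 and 0.80 (exact permutation p = 0.514, 0.114 and 0.314).

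**Figure D3:**
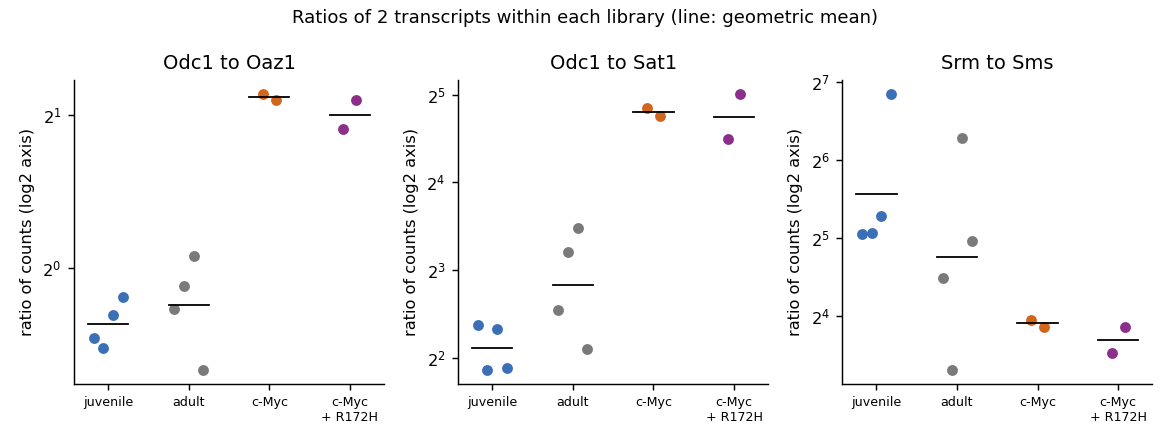
Ratio of counts of 2 genes in each library on a log2 axis, with 1 point per library and a line at the geometric mean of each group. For *Odc1* to *Oaz1* the 4 *c-Myc* libraries lie at 1.88 or higher and the controls at 1.05 or lower; for *Srm* to *Sms* the adult libraries span the *c-Myc* values.

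The *R172H* comparison asked whether mutant p53 altered these genes in cells that already carried the *c-Myc* transgene. None of the 9 genes was called in edgeR's test, and none in DESeq2's. Over all genes edgeR called 0.469% of 12588, and DESeq2 called 201 of the 7220 to which it gave an adjusted p. At an unadjusted p below 0.05 there were 2 of the 9, *Smox* and *Srm*, and 4.68% of all genes. *Smox* differed by -0.64 ± 0.22 (adjusted p = 0.515, edgeR), with 24.2 and 29.2 CPM in *c-Myc* and 13.8 and 19.7 CPM in *c-Myc* + *R172H* cells, and *Srm* by -0.24 ± 0.11 (adjusted p = 1.00, edgeR). The groups did not overlap for either gene, as for 27.5% of all genes in that direction. The call on *Smox* depended on the fit. It had an adjusted p of 0.0327 when only these 4 libraries were fitted, 0.00919 when low counts were kept, and 0.00173 when the replicate number was fitted as a block, which among these *c-Myc* libraries also separates *Xist*-low from *Xist*-high. *Odc1* differed by -0.18 ± 0.13 and the other 6 genes by -0.09 to 0.05. With SEs of 0.13 to 0.36 for those 6 and *Odc1*, small differences were not detectable.

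The age comparison set juvenile against adult cells. None of the 9 genes was called by edgeR or DESeq2, where 5.12% of 11345 genes were called by edgeR and 935 of 13260 by DESeq2. At an unadjusted p below 0.05 there were 2 of the 9, *Smox* and *Odc1*, and 19.7% of all genes. *Smox* was at 133 ± 26.4 CPM in juvenile and 95.0 ± 25.2 CPM in adult libraries (mean ± SD, n = 4 each), a log2 difference of 0.48 ± 0.18 (adjusted p = 0.130, edgeR). *Odc1* was at 58.7 ± 7.76 and 72.1 ± 6.61 CPM, a difference of -0.30 ± 0.13 (adjusted p = 0.186, edgeR). Neither pair of groups was separate. *Smox* passed without adult replicate 3, at 0.67 (adjusted p = 0.0274, edgeR), and *Odc1* passed with library totals, at -0.55 (adjusted p = 0.0209, edgeR), a scaling under which the median gene stood at -0.24. *Sms* (-0.72 ± 0.58) and *Amd1* (-0.35 ± 0.33) had wide errors at 6 to 75 counts per control library, and *Oaz2* groups did not overlap, as for 6.75% of genes in that direction, although it was not called (-0.28 ± 0.18, adjusted p = 0.439, edgeR).

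**Figure D4:**
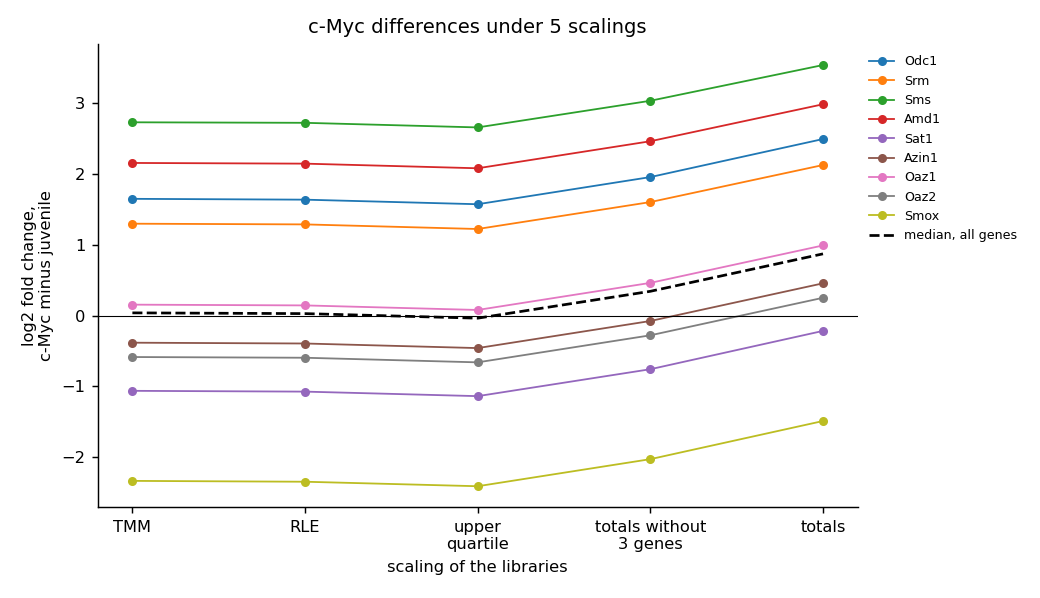
Log2 fold change of each gene in *c-Myc* minus juvenile cells under 5 scalings, with the median of all tested genes dashed. The lines dip slightly up to upper-quartile factors and then rise together. With library totals, at the right, *Azin1* and *Oaz2* cross 0 and the median stands at 0.87. *Odc1*, *Srm*, *Sms* and *Amd1* stay above 0, and *Smox* and *Sat1* stay below 0.

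Genes around the pathway were grouped by role, and these lists too were chosen with earlier results of these data known. Of 35 such genes, 25 passed the filter on low counts, and in *c-Myc* against juvenile cells 11 rose, 7 fell and 7 were not called (edgeR), with the same 3 counts in *c-Myc* + *R172H* cells. Over all genes 28.4% rose and 25% fell in the first comparison and 30.4% and 26.3% in the second, so the number that fell was near the background. With library totals 17 rose and 2 fell in both comparisons, but with that scaling 6803 and 7667 of all 12588 genes rose. S-adenosylmethionine supply and methylthioadenosine salvage form the cycle that feeds *Amd1* and clears the by-product of *Srm* and *Sms*. Of its 7 tested genes 6 rose, beside 28.4% of all genes. The median log2 fold change of the 7 was 1.63, beside 0.04 over all genes. *Mtap*, which cleaves methylthioadenosine, rose by 2.08 ± 0.21 (adjusted p = 4.69e-06, edgeR), from 9.81 to 19.2 CPM in juvenile libraries to 61.0 and 62.8 CPM. *Mri1*, a later salvage enzyme, rose by 1.68, and *Mat2a*, which makes S-adenosylmethionine, rose by 1.66, from 31.9 to 43.8 CPM in juvenile to 119 and 121 CPM in *c-Myc* libraries. *Mat2b*, its regulatory subunit, differed by -0.30 (adjusted p = 0.226, edgeR).

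Spermidine is the donor for hypusine, a modified lysine of the translation factor eIF5A, and 3 of the 4 hypusine genes rose, where 28.4% of all genes did. *Eif5a* itself rose by 1.49 ± 0.09 (adjusted p = 6.21e-08, edgeR), from 179 to 201 CPM in juvenile to 575 and 495 CPM in *c-Myc* libraries. The 2 enzymes that build hypusine moved with it, *Dohh* by 1.63 (adjusted p = 1.63e-05, edgeR) and *Dhps* by 1.56 (adjusted p = 0.00169, edgeR). The paralog *Eif5a2* differed by 0.42 (adjusted p = 0.268, edgeR).

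Ornithine and arginine supply went in both directions. *Slc7a1*, an arginine transporter, rose by 1.58 ± 0.12 (adjusted p = 3.99e-07, edgeR), whereas *Oat*, which removes ornithine, fell by 1.03 ± 0.10 (adjusted p = 3.52e-06, edgeR; -0.20 and not called with library totals). *Aldh18a1*, of proline synthesis, fell by 0.34 (adjusted p = 0.0253, edgeR) but was higher by 0.50 with library totals (adjusted p = 0.00433, edgeR). Of the 8 genes in this list only 4 were tested, and *Arg1*, *Arg2*, *Agmat* and *Otc* were below the filter. Among 7 tested genes of polyamine transport 1 rose and 3 fell, where 28.4% and 25% of all genes did. *Atp13a3*, a polyamine transporter, rose by 0.85, whereas *Atp13a2*, of the same list, fell by 0.63 (adjusted p = 0.00856, edgeR). With library totals *Atp13a2* was at 0.19 and not called. The glypican *Gpc1*, which has a part in polyamine uptake, fell by 1.06 (-0.23 and not called with library totals). *Cav1*, of caveolae, was called lower on 1 count in each *c-Myc* library against 2, 15, 24 and 20 counts in juvenile libraries, too few for a fold change.

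Of the paralogs, *Azin2* fell by 3.11 ± 0.49 (adjusted p = 0.000187, edgeR), from 12.3, 5.99, 9.04 and 13.0 CPM in juvenile to 1.60 and 0.74 CPM in *c-Myc* libraries. *Sat2* fell by 1.83 ± 0.57 (adjusted p = 0.0157, edgeR; 0.146 with library totals), from 2.47, 2.37, 4.59 and 3.73 CPM to 1.05 and 0.79 CPM. *Paox*, the peroxisomal oxidase of acetylated polyamines, differed by 0.24 (adjusted p = 0.723, edgeR). *Amd2* had at most 6 counts in any library and *Oaz3* at most 1, so neither was tested. None of the 25 genes was called for age or *R172H* in edgeR, with 2 and 0 at an unadjusted p below 0.05, where 5.12% and 0.469% of all genes were called and 19.7% and 4.68% had an unadjusted p below 0.05. DESeq2 called 1, *Cav1*, for age and 0 for *R172H*, where it gave 17 of the 25 an adjusted p. Over all genes it called 935 of 13260 and 201 of 7220.

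**Figure D5:**
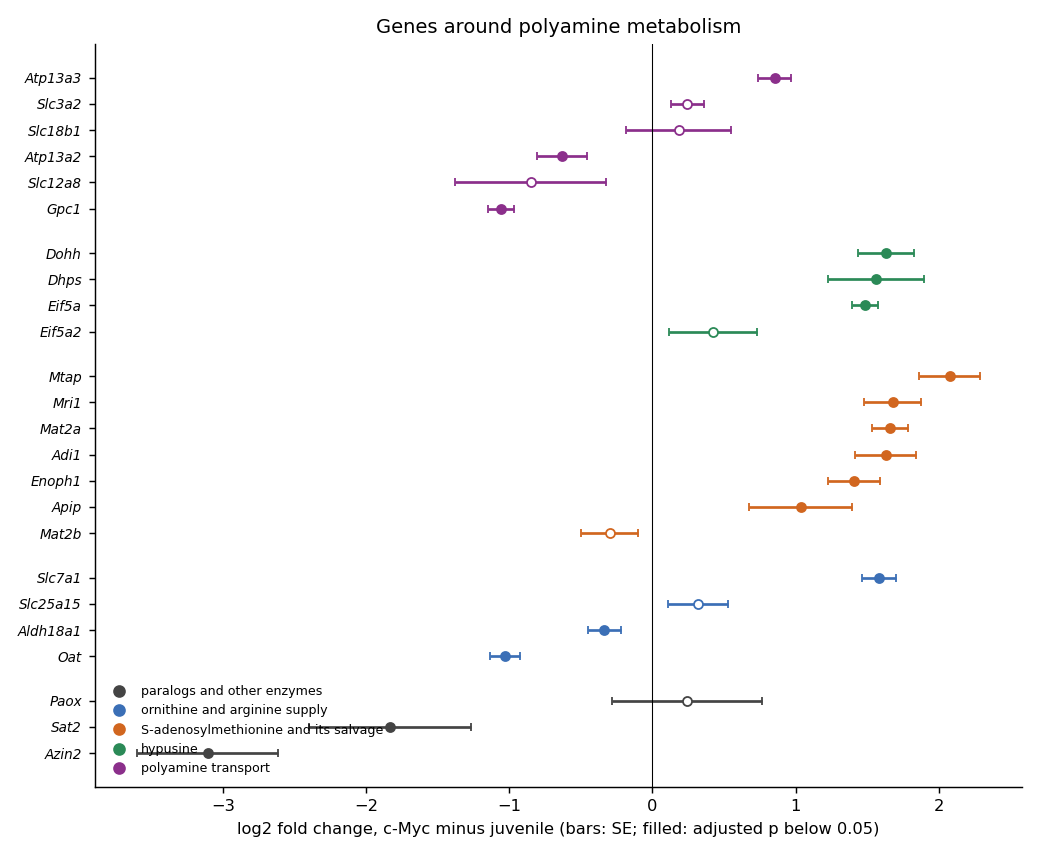
Log2 fold change ± SE in *c-Myc* minus juvenile cells (edgeR, TMM scaling) of 24 of the 25 tested genes around polyamine metabolism, coloured by role and filled where the adjusted p was below 0.05. *Cav1*, with 1 count in each *c-Myc* library, is not drawn. With library totals *Aldh18a1*, *Atp13a2*, *Mat2b* and *Slc12a8* cross 0. The salvage and hypusine genes lie mostly to the right, between 1.03 and 2.08 where called, and *Azin2* lies farthest to the left.

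The genes whose pattern over the 12 libraries was closest to that of a member were found by the root mean square difference of centred log2(CPM + 1) values among 13004 genes. Closest to *Odc1* were *Banf1* (0.13), *Sod2* (0.14) and *Atpaf2* (0.15), where the median gene was at 0.76. Closest to *Srm* were *Larp1* (0.11), *Prpf19* (0.12) and *Eef1d* (0.13), with a median of 0.71. *Sat1* had no neighbour as near, with *Syap1*, *Arl3* and *F8* each at 0.23 and a median of 0.69. Among the members the closest pairs were *Azin1* with *Oaz2* (0.23), *Odc1* with *Srm* (0.25) and *Odc1* with *Amd1* (0.29). The points share libraries and the split between *c-Myc* and control cells, and no test was made.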

How the data were processed

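RNA-seq of sorted mGFP+ CD31-CD45-TER119- cells (12 libraries, single-end, 86-base reads) was used. The authors trimmed reads with cutadapt 4.6, aligned them with STAR 2.7.11a and deposited raw counts per gene made with HTSeq 2.0.5; bcl2fastq 2.20 is also named in the submitters' processing notes. The strand setting of the counting is not given in the sources used here. Every column was matched to a sample by its library name, and 0 were left over.

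Counts were tested with edgeR 4.0.16 (R 4.3.3; quasi-likelihood test, TMM factors, filterByExpr with a minimum count of 10), with Benjamini-Hochberg adjustment over all genes tested and a threshold of 0.05. The age fit used the 8 control libraries. The other 3 comparisons came from 1 fit of the 8 libraries of the juvenile group and both transgenic groups. CPM for display used TMM factors of all 12 libraries. Levels per kb used exon lengths and coordinates of GENCODE vM21 (GRCm38). Ratios were compared by exact permutation of libraries. No library differed from a replicate by sampling noise only, and none was merged. The CPM that a floor of 3 counts represents follows from each library's total and covers counting error only.

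The members and gene lists were chosen with earlier results of these data known. Named were the 9 members, 5 paralogs, up to 3 genes of each other list with the largest called *c-Myc* change, the 3 genes nearest to *Odc1*, *Srm* and *Sat1*, and genes that check labels and composition; *Mat2b*, *Eif5a2*, *Atp13a2*, *Slc12a8* and the untested arginine genes were added after their values were seen. Alternatives were other scalings (RLE, upper quartile, library totals, totals without *Col1a1*, *Col1a2* and *Gm26917*), other filters, other sets of libraries, a replicate block, DESeq2 1.42.0 and leaving out each library. On simulated counts with 195 genes changed by 1 on the log2 scale, the test recovered 57.9% for age and 59.5% for *c-Myc*, with 3 and 0 false calls. The changes were drawn evenly up and down, and every other gene had the same mean in both groups. The shift in composition of the *c-Myc* libraries was thus not simulated. These rates do not carry over to the real *c-Myc* comparison, where 6726 of 12588 genes were called.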

Additional observations from a re-analysis of the deposited data

Results flagged for a closer look

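Among 24 groups of 4 libraries checked for 1 library far from the rest (Dixon's ratio of the gap to the range), 3 were marked, where chance marks about 1 in 20 groups. The ratio of *Srm* to *Sms* counts in juvenile cells had a gap of 0.931 of its range, because replicate 4 stood at 115 with only 6 *Sms* counts. *Srm* in adult cells had a gap of 0.903, with replicate 3 at 100.5 CPM and the other three at 77.2 to 79.4 CPM. *Oaz2* in adult cells had a gap of 0.9, with replicate 2 at 25.5 CPM and the others at 17.7 to 18.5 CPM.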

How the results depend on the processing

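The calls on *Odc1*, *Srm*, *Sms*, *Amd1* and *Smox* against juvenile cells held in every alternative that gave a value; *Sms* gave none with at least 10 counts in every library. The limits of these data are the 2 libraries in each *c-Myc* group, the low counts of *Sms* and *Amd1* in controls, and the scaling of libraries whose composition differs. The cause of the changes below was not tested.

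With library totals the median of all genes moved to -0.24 (age), 0.87 (*c-Myc*), 0.21 (*R172H*) and 1.11 (*c-Myc* + *R172H* against juvenile), and the share of calls that were higher was 6.27% for age (36.8% with TMM), 85.9% for *c-Myc* (53.2%) and 86.8% for *c-Myc* + *R172H* against juvenile (53.6%). Members called lower were then 1 for age and 1 rather than 4 against juvenile cells in both comparisons, and 12 rather than 59 genes were called for *R172H*. Signs turned for *Srm* in age (-0.048), for *Azin1* (0.45 and 0.61) and *Oaz2* (0.25 and 0.42) in the 2 comparisons with juvenile cells, and in *R172H* for *Odc1* (0.027), *Sms* (0.20), *Sat1* (0.12), *Azin1* (0.16), *Oaz1* (0.15) and *Oaz2* (0.17). *Oaz1* then passed, at 0.99 and 1.14. With totals that left out *Col1a1*, *Col1a2* and *Gm26917* the shares higher were 61.3%, 67.6% and 67.8%, members lower numbered 2 in both comparisons with juvenile cells, and *Azin1* in age (0.053) and *Sms* in *R172H* (0.017) turned; *Sms* in *R172H* was 0.0007 with upper-quartile factors.

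Without a filter 977 of 16862 genes were called for age (581 of 11345 otherwise) and 222 of 19021 for *R172H*, with 1 member each, *Smox*. All 12 libraries in 1 fit gave 1094 and 22 of 13005 genes. DESeq2 gave 935 of 13260 and 201 of 7220 genes with an adjusted p. A fit of only the 2 groups gave 629 of 12170 for *R172H*, with 2 members, *Smox* and *Srm*.

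Nothing in the labels ties libraries of the same number to a shared animal or day. Their deviations correlated at -0.079 to 0.078, and at 0.174 between the *c-Myc* groups, 1 value with 2 libraries in each, where same-numbered libraries also shared low or high *Xist*. A replicate block called 434 of 11345 genes for age and 326 of 12588 for *R172H*. Each held 1 member, *Smox*, at 0.49 (adjusted p = 0.0428, edgeR) and -0.66 (adjusted p = 0.00173, edgeR).

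Leaving out each library gave 284 to 885 genes for age, with 0 to 1 members higher, and 8 to 55 genes for *R172H*. Members lower ranged from 2 to 4 for *c-Myc* and from 1 to 4 for *c-Myc* + *R172H* against juvenile, where *Sat1*, *Azin1* and *Oaz2* were lost without replicate 2. In *R172H*, where none was called, the differences ranged from -0.22 to 0.11 for *Oaz2*, from -0.098 to 0.15 for *Amd1*, from -0.20 to 0.10 for *Sms*, from -0.43 to 0.13 for *Sat1* and from -0.20 to 0.021 for *Oaz1*, and that of *Oaz1* in *c-Myc* + *R172H* against juvenile cells from -0.044 to 0.18. A lone library was assumed to vary like the other groups. The log2 ratios kept their signs, for example 1.38 to 1.49 for *Odc1* to *Oaz1* in *c-Myc* libraries. The scalings of the 25 genes around the pathway were added after the data were seen. With totals that left out the 3 genes, 13 rose and 5 fell in *c-Myc* cells, where 4781 of all 12588 genes rose.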
